A study of Mus musculus with 6 samples.

Results

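Dual-specificity MAP kinase phosphatases are the subject of this report, namely Dusp1, Dusp2, Dusp4, Dusp5, Dusp6 and Dusp16, 6 of the 10 such genes of the mouse. The members were the array probes whose RefSeq accession belongs to 1 of these genes. Each gene had 1 probe, printed in 1 spot, so the members were 6 of 56605 probes. Of these, 4 passed the detection filter described below and were among the 4488 genes tested. The series used C5aR+ LysoDCs, lysozyme-expressing mononuclear phagocytes of mouse Peyer's patch that carry the receptor for the complement fragment C5a. Of the 6 samples, 3 had received recombinant C5a (100 nM for 3 h) and 3 were untreated (0 nM), with 1 Agilent 1-colour array per sample. All were CD11c-enriched, sorted and cultured with CSF-1 (0.1 μg/mL) and CSF-2 (0.5 μg/mL, spelled CFS-2 in the labels). Strain, age, sex and the culture time of untreated cells are not given in the sources used here. The labels do not say that replicates were separate animals or preparations. The p-values therefore reflect the sample-to-sample spread here, part of which may be technical. The comparison addresses whether C5a sets off intracellular signalling in these cells.

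MAP kinases (ERK, JNK and p38) are switched on when both the threonine and the tyrosine of their activation loop carry phosphate. The dual-specificity phosphatases remove both phosphates and so switch the kinase off. Several of the phosphatase genes are themselves induced by MAP kinase signalling, which makes them a negative feedback loop, and in macrophages and dendritic cells Dusp1 is known for limiting cytokine production. The C5a receptor is a G protein-coupled receptor that activates ERK in phagocytes.

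The arrays were dim and uneven. Between 2728 and 6959 probes per array were well above background, the mark the scanner software gives to a spot clearly brighter than its surroundings. The 75th percentile of signal spanned a 4.23-fold range over the arrays before scaling, and was lowest on the replicate 3 array of each group. Levels below are log2 signals relative to that percentile, where the percentile of each array covers the 2371 probes that passed this mark on all 6. A gene was tested where its probe was well above background on at least 3 arrays. Levels of different probes are not compared with each other. Mononuclear phagocyte markers gave signal, with 7 of 10 tested, among them Lyz1, Csf1r and Ctss, while Cx3cr1, Mertk and Fcgr1 were not well above background on any array. Their summed linear signal was 12.7 to 18.4 times the array's 75th percentile on C5a arrays and 11.9 to 16.9 times on untreated arrays. No array showed any of the 5 T cell, 5 epithelial or 4 stromal markers, and Cd79b was the B cell marker tested of 5. Csf3r was the neutrophil marker tested and Xbp1 the plasma cell marker, while S100a8, S100a9 and Mpo were not well above background on any array.

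Promoter sequences are shown for 3 members to set the best and least detected ones side by side, together with Dusp2, the member that varied most. RefSeq promoters (GRCm38.p6, 250 bases before and 50 after the start site, 5′ to 3′ on the gene's strand) matched 5 of 6 members. Capitals mark the CRE core TGACG, bound by CREB and related factors, the E-box CACGTG, and the CArG box, the site of serum response factor, on either strand.
Dusp1 promoter, chr17:26508423-26508722, minus strand: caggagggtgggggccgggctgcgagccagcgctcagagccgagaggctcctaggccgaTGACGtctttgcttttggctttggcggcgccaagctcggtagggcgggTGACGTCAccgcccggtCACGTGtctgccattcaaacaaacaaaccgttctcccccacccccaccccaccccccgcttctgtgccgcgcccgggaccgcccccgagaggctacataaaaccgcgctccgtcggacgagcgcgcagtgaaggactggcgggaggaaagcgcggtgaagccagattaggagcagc
Dusp2 promoter, chr2:127335909-127336208, plus strand: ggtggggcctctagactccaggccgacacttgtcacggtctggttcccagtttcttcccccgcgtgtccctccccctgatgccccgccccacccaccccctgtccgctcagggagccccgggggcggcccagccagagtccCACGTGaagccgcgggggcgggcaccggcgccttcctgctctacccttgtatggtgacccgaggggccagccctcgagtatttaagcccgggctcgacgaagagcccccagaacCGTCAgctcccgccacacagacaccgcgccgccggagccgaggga
Dusp5 promoter, chr19:53528895-53529194, plus strand: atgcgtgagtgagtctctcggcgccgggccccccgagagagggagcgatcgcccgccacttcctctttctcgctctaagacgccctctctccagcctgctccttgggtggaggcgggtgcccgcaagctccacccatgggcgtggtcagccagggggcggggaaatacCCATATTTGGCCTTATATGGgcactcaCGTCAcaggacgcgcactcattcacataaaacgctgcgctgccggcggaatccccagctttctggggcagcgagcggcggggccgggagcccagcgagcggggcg

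The Dusp1 promoter held a full CRE, TGACGTCA, at bases 108 to 115 of the printed run. This full site contains 2 of the 3 cores found there, which overlap. Over all 32851 promoters of the table, 1.79% held the full CRE and 20.8% a core. Dusp1 and Dusp2 each had 1 E-box, a motif found in 7.15% of promoters. Dusp5 had 2 adjacent CArG boxes, at bases 169 to 178 and 179 to 188, where 1.63% of promoters had any. Dusp16 had 1 CRE core, and none of the 3 motifs was found in the Dusp6 window. The AP-1 site TGANTCA (7.81% of promoters), the TATA box TATAAA (13.6%) and the kappaB site (4.51%) were found in none of the 5. These matches describe letters and are not evidence of binding.

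Detection differed sharply between the members. Dusp1 was well above background on all 6 arrays, Dusp2 on 5, Dusp6 and Dusp16 on 4 each, Dusp4 on 1 and Dusp5 on 0. By array, 4, 5 and 3 of the 6 members were well above background on C5a 1, 2 and 3, against 2, 4 and 2 on untreated 1, 2 and 3. In each group the count was highest on replicate 2, whose arrays also had the most probes well above background (11.7% of all probes on C5a 2 and 12.3% on untreated 2). On the other C5a arrays 8.59% (C5a 1) and 6.48% (C5a 3) of probes were well above background, and on the other untreated arrays 6.31% (untreated 1) and 4.82% (untreated 3). The part of array brightness in these counts was not tested.

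The rest of the family was mostly undetected, as were most probes of the array (48672 of 56605 well above background on 0 arrays). Dusp7, Dusp8, Dusp9 and Dusp10, the other 4 MAP kinase phosphatases, were not well above background on any array, so that 5 of the 10 gave signal on at least 1 array and 4 were tested. Of 15 atypical dual-specificity phosphatases, most of which lack the MAP kinase docking domain, Dusp3 passed the filter, Dusp11 and Styx were each well above background on 1 array, and 12 were on 0. Dusp3, which acts on ERK and JNK, was at -2.0, -2.58 and -2.0 in C5a 1 to 3 and at -2.54, -2.46 and -2.59 in untreated 1 to 3. The groups overlapped, with a difference of 0.34 (SE 0.28, limma adjusted p = 0.9994).

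**Figure D1:**
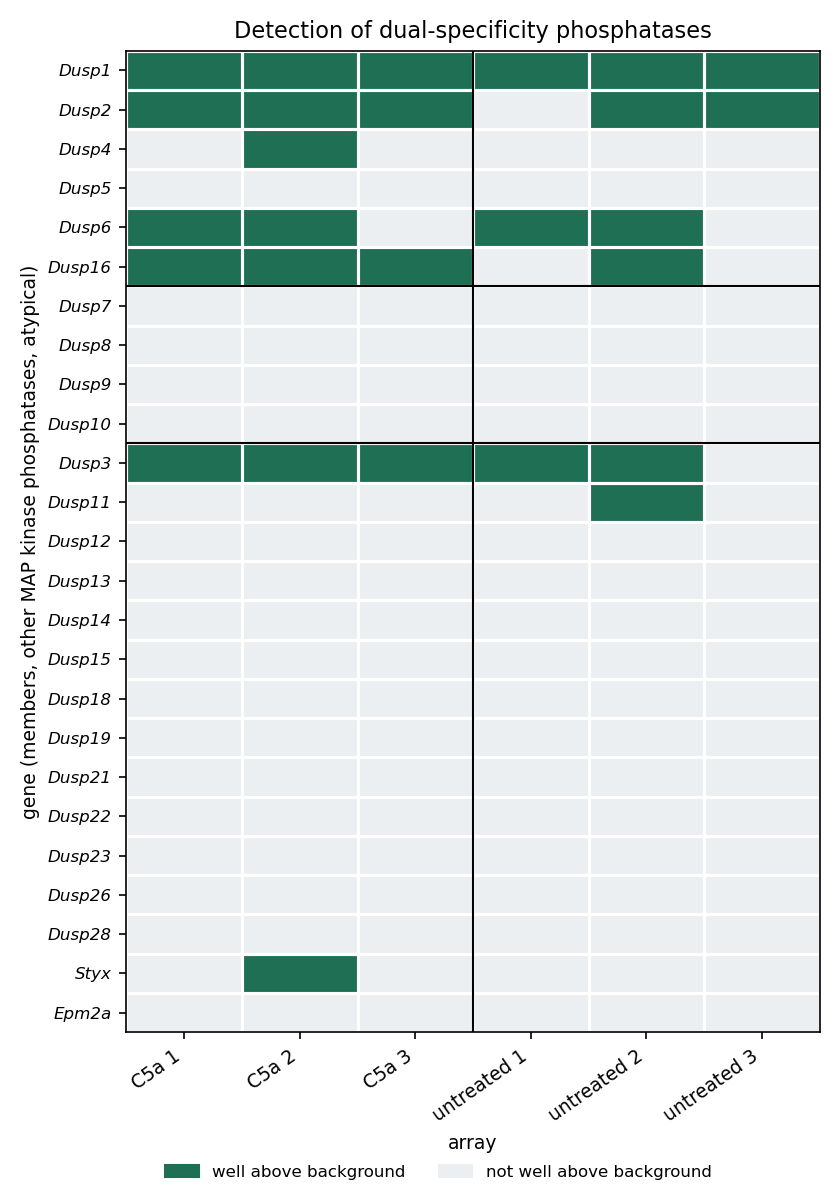
Detection of the MAP kinase phosphatases and atypical dual-specificity phosphatases (rows) on the C5a arrays (left of the vertical line) and the untreated arrays (right). A green cell is a probe well above background, taken for each gene from its most often detected probe. Dusp1 is filled on all 6 arrays and the other members on 5 or fewer.

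No member differed between C5a-treated and untreated cells past the threshold. In limma with Benjamini-Hochberg adjustment over all 4488 genes, 0 of the 4 tested members had an adjusted p under 0.05 (adjusted p = 0.9994 for each), and 0 had an unadjusted p under 0.05. The background was likewise 0% of genes called, and 106 of 4488 genes had an unadjusted p under 0.05. All 4 members had a positive difference, where 54.9% of all genes tested did. With normexp background correction Dusp1 (-0.022), Dusp6 (-0.20) and Dusp16 (-0.060) were negative, where the median of all genes was -0.12, and Dusp2 and Dusp6 also turned when single samples were left out. The median over the members was 0.31, beside 0.04 over all genes tested. The 3 C5a values lay above the 3 untreated values for 1 of the 4, Dusp1, where 3.39% of all genes had that order, 2.32% had the opposite one and 5.7% had either. In such bulk samples a lower signal from fewer expressing cells and from less RNA per cell cannot be told apart.

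**Figure D2:**
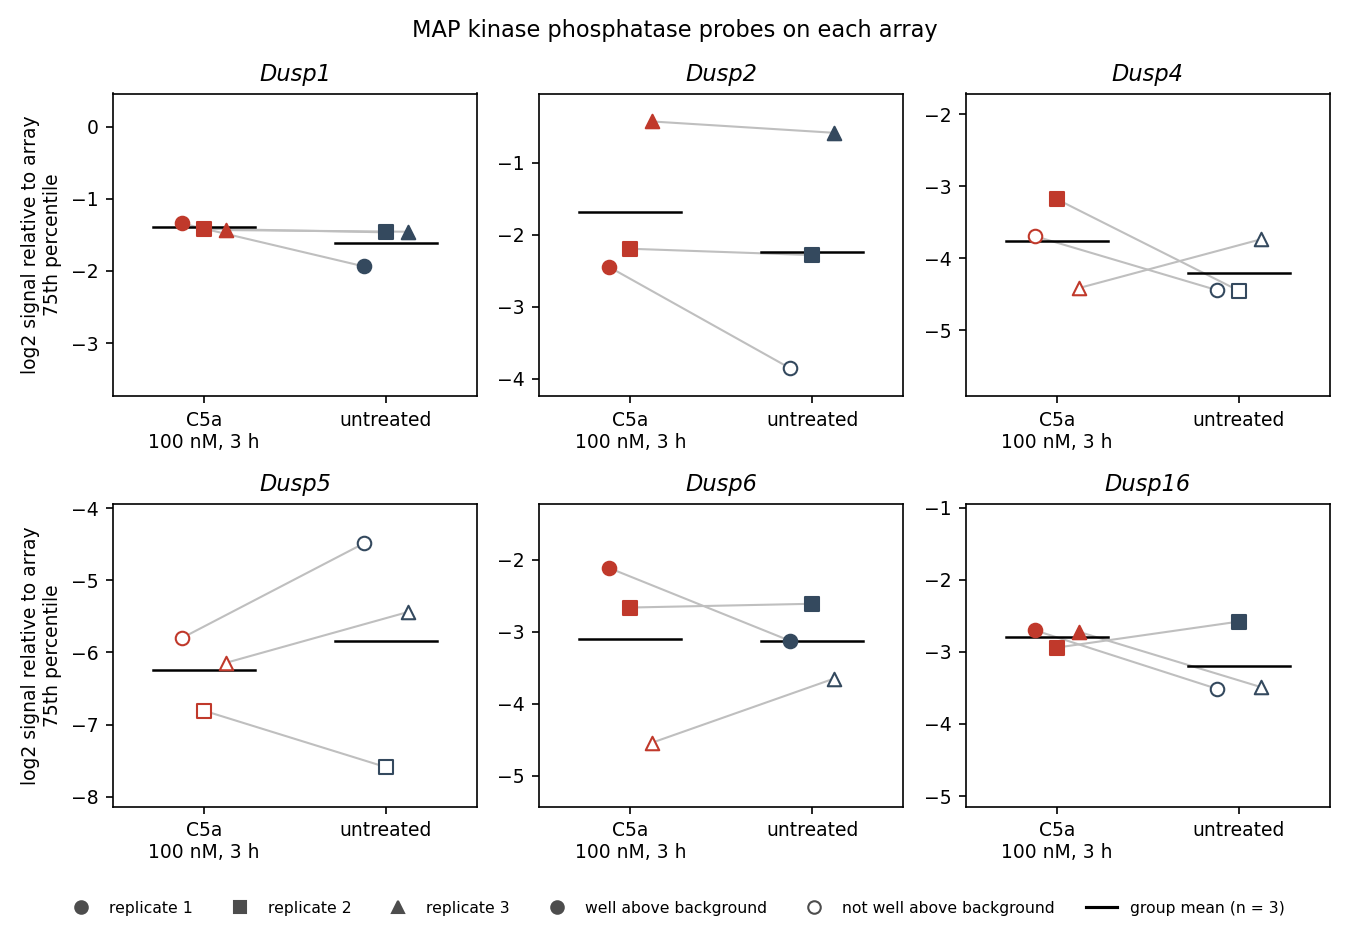
Level of each member's probe (log2 signal relative to the array's 75th percentile) in C5a samples (left of each panel) and untreated samples (right). Symbols are replicate numbers, grey lines join samples of the same number, bars are group means (n = 3), and open symbols are not well above background. Each panel spans the same range of log2 units around its own values, so spreads but not heights can be compared. Dusp1 is tightly grouped, while replicate 3 is the highest sample of both groups for Dusp2 and the lowest for Dusp6.

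Dusp1 (probe A_55_P2908530, NM_013642) encodes a nuclear phosphatase that acts mainly on p38 and JNK. Its level was -1.34, -1.42 and -1.43 in C5a 1 to 3 and -1.94, -1.46 and -1.46 in untreated 1 to 3. Before scaling, the processed intensities were 100.1, 141.5 and 57.0 with C5a and 42.7, 166.5 and 39.6 without, each 8.27 to 9.89 times the error that the scanner software assigned. The groups did not overlap, but the lowest C5a sample was only 0.02 above the highest untreated one. That gap was smaller than the scanner error of a single Dusp1 spot, 0.14 to 0.16 on the log2 scale. With normexp background correction, and with the percentile taken over all probes, the groups overlapped. The means were -1.40 ± 0.05 with C5a and -1.62 ± 0.28 without (SD, n = 3 each), and the lower untreated mean came from untreated 1. The difference was 0.22 (SE 0.26, 95% interval -0.40 to 0.85), or 1.17-fold with an interval of 0.757 to 1.80. Without untreated replicate 1 it was 0.06.

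Dusp1 was among the steadier transcripts. Its SD within groups, 0.20, was larger than that of only 9.36% of the genes tested, whose median SD was 0.47. By mean absolute difference between centred log2 values over the 6 arrays, the genes most like it were Eef1b2 (0.070), a translation elongation factor subunit, Txnl4a (0.070), a spliceosome protein, and Ptprj (0.075), a receptor tyrosine phosphatase. All 3 were well above background on all 6 arrays.

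Dusp2 (probe A_52_P399934, NM_010090) encodes a nuclear phosphatase found mainly in blood cells. Its level was -2.44, -2.20 and -0.43 in C5a 1 to 3 and -3.86, -2.28 and -0.59 in untreated 1 to 3, where untreated 1 was not well above background. The groups overlapped, and replicate 3 was the highest sample in each of them. This also held for the unscaled intensity with C5a, at 46.6, 82.4 and 114.1, but not without, at 11.3, 94.4 and 72.3. The difference was 0.55 (SE 0.88, 95% interval -1.53 to 2.63), from means of -1.69 ± 1.1 with C5a and -2.24 ± 1.63 without (SD, n = 3 each). It turned to -0.25 without untreated replicate 1 and to -0.08 without C5a replicate 3, and was 1.38 without untreated replicate 3.

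The spread of Dusp2 went with the replicate number. Its SD within groups, 1.39, exceeded that of 97.2% of genes tested. Within numbers 1, 2 and 3 the C5a sample was 1.41, 0.09 and 0.16 above the untreated one, the first against an untreated sample not well above background. With the replicate number as a block the SE was 0.35 (95% interval -0.35 to 1.46, limma adjusted p = 0.9267). Number 3 was 2.19 above the mean of numbers 1 and 2, a value above that of 99.6% of genes, where the median gene was at -0.09. It was also above that of at least 99.6% of genes with normexp (1.33) and with quantile normalization (2.23). This comparison of number 3 with the other numbers was chosen after the values were seen. Its ranks, here and for Dusp6 below, describe the pattern and do not test it. A limma F test of the number beside C5a, added after these values were seen, gave an unadjusted p of 0.00484 and an adjusted p of 0.1994 for Dusp2. None of the 4488 genes passed that F test after adjustment (0%), and 803 had an unadjusted p under 0.05.

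The genes most like Dusp2 were Ccl3 (mean absolute difference 0.11), an inflammatory chemokine, Pvr (0.13), a nectin-like adhesion receptor, and Plac8 (0.15). Ccl3 was at 0.15, 0.62 and 2.04 in C5a 1 to 3 and at -1.03, 0.48 and 2.11 in untreated 1 to 3. Ccr7, a receptor of migratory dendritic cells, had the same order, at -1.82, -0.77 and 0.50 with C5a and -2.22, -0.76 and 0.84 without. Itgax, the other of 2 dendritic cell markers tested of 6, did not have that order, at -0.45, 0.26 and -0.22 with C5a and -0.51, -0.10 and -1.18 without. Their summed linear signal was 1.01 to 2.27 times the array's 75th percentile on C5a arrays and 0.916 to 2.23 times on untreated arrays, and Flt3, Zbtb46, Xcr1 and Cd209a were on 0 arrays well above background. Cd79b, the B cell marker tested, was at -5.42, -3.70 and -3.03 with C5a and -4.71, -3.15 and -2.94 without. It was not well above background on C5a 1, untreated 1 and untreated 3, and Ms4a1, Cd79a and Pax5 of the same list were on 0 arrays. The order was not particular to these cell types. Among the mononuclear phagocyte markers tested, Cd68 had it, at 0.055, 0.13 and 0.83 with C5a and 0.11, 0.17 and 0.74 without. The others of that list did not, and Lyz1 was lowest in number 3 of both groups. Of the tested pathway genes described below, Mapk6, Mapkapk2, Elavl1 and Hnrnpd had it and the others did not. The part of cell types in the Dusp2 values was not tested.

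**Figure D3:**
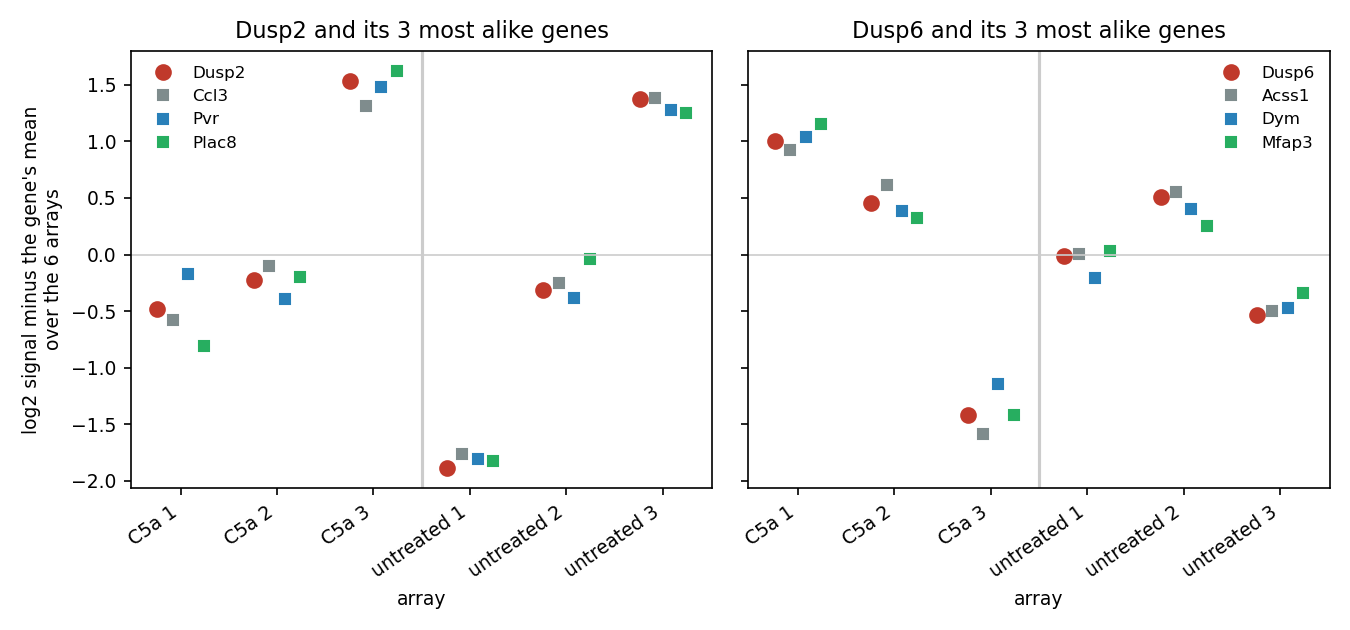
Levels of Dusp2 (left panel) and Dusp6 (right panel) with the 3 genes most like each, as log2 signal minus the gene's mean over the 6 arrays. The horizontal axis lists C5a 1 to 3 and then untreated 1 to 3. In both groups sample 3 is the highest for Dusp2 and the lowest for Dusp6, and the 3 genes of each panel lie close to the member by choice.

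Dusp4 and Dusp5, both nuclear and inducible by ERK, gave little or no signal. Dusp4 (probe A_51_P518051, NM_176933) was well above background on C5a 2 alone, with processed intensities of 19.6, 41.6 and 7.22 in C5a 1 to 3 and 7.52, 21.1 and 8.16 in untreated 1 to 3. The levels were -3.69, -3.18 and -4.41 with C5a and -4.44, -4.45 and -3.74 without, and they overlapped. The group means as measured were -3.76 with C5a and -4.21 without, and since 5 of the 6 values were not well above background no fold is given. Dusp5 (probe A_55_P2063237, NM_001085390), which acts on ERK, had intensities of 2.17 to 4.56 on the C5a arrays and 2.38 to 7.28 on the untreated arrays. These were 0.995 to 1.87 times the scanner error with C5a and 0.994 to 2.58 times without, so its transcript was not detectable at this sensitivity in either group. Neither gene was tested.

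Dusp6 (probe A_51_P502614, NM_026268) encodes a cytoplasmic phosphatase that is selective for ERK and is itself induced by ERK signalling. Its level was -2.11, -2.66 and -4.54 in C5a 1 to 3 and -3.13, -2.61 and -3.65 in untreated 1 to 3. Replicate 3 was the lowest sample in both groups and was not well above background in either, at intensities of 6.62 with C5a and 8.67 without. On those arrays the level lay below the dimmest probe that was well above background, at -3.81 on C5a 3 and -3.31 on untreated 3. The groups overlapped, and the difference was 0.02 (SE 0.64, 95% interval -1.48 to 1.53), from means of -3.10 ± 1.27 with C5a and -3.13 ± 0.52 without (SD, n = 3 each). It was -0.47 without C5a replicate 1, -0.20 without C5a replicate 2, 0.74 without C5a replicate 3, 0.28 without untreated replicate 2 and -0.23 without untreated replicate 3.

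Dusp6, unlike Dusp2, had its lowest sample in number 3 of both groups. Numbers 1 and 2 differed in order, with number 1 higher with C5a and number 2 higher without. Number 3 was at -1.46 relative to the mean of numbers 1 and 2, where 4.21% of genes were lower, but at 0.17 with normexp, where 25.6% of genes were lower. Within numbers 1 and 2, where both samples were well above background, C5a minus untreated was 1.02 and -0.05. In the limma F test of the number its adjusted p was 0.2809. The genes most like it were Acss1 (mean absolute difference 0.08), an acetyl-CoA synthetase, Dym (0.12) and Mfap3 (0.13), each well above background on 3 arrays.

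Dusp16 (probe A_66_P116252, NM_130447) encodes a phosphatase selective for JNK and p38. Its level was -2.70, -2.94 and -2.72 in C5a 1 to 3 and -3.51, -2.58 and -3.49 in untreated 1 to 3. All 3 C5a arrays measured it well above background, but of the untreated arrays only untreated 2 did. The groups overlapped because untreated 2 was the highest of the 6. Processed intensities were 39.0, 49.1 and 23.3 with C5a and 14.3, 76.8 and 9.69 without. The undetected untreated samples were on the 2 arrays with the fewest probes well above background. C5a 3, which did measure it well above background, had nearly as few such probes (3668, against 3574 on untreated 1). The part of array brightness in this pattern was not tested. The difference was 0.41 (SE 0.33, 95% interval -0.38 to 1.19), or 1.32-fold, from means of -2.79 ± 0.13 with C5a and -3.19 ± 0.53 without (SD, n = 3 each). Without untreated replicate 2 it was 0.71, and without untreated replicate 1 it was 0.25. Within number 2, where both samples were well above background, C5a minus untreated was -0.36. Within numbers 1 and 3 C5a minus untreated came to 0.81 and 0.77, against untreated samples that were not well above background. The genes most like it were Zfp207 (0.09), Gpi1 (0.11), a glycolytic isomerase, and Ppp4r1 (0.12), a regulatory subunit of protein phosphatase 4.

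**Figure D4:**
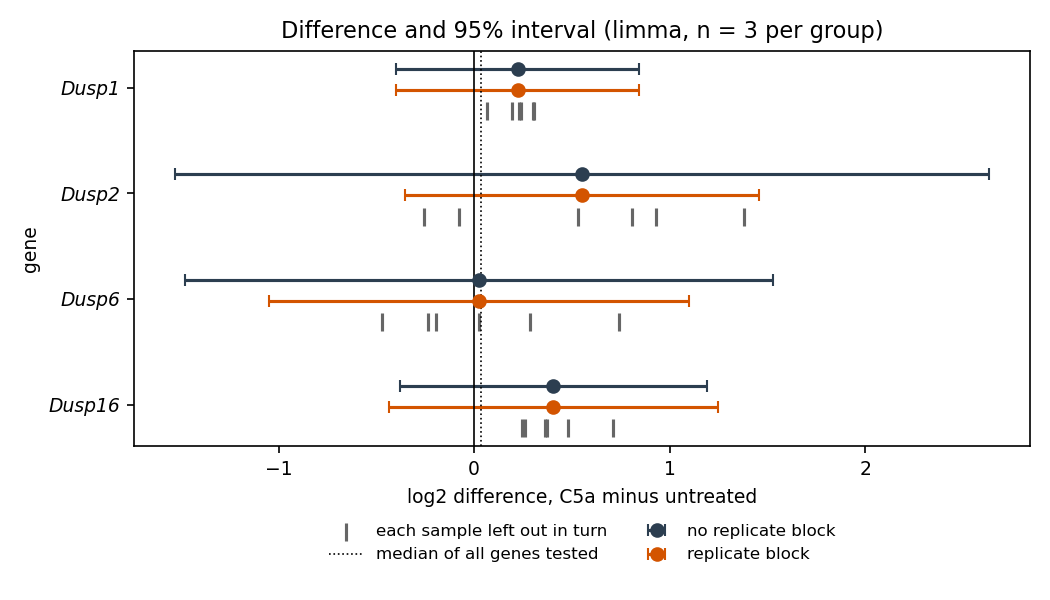
Log2 difference, C5a minus untreated, of the 4 tested members with 95% intervals from limma (n = 3 per group), without and with the replicate number as a block. Ticks give the difference with each sample left out in turn, and the dotted line is the median of all genes tested. All intervals include 0, and the ticks of Dusp2 and Dusp6 fall on both sides of it.

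The C5a minus untreated differences of the tested members varied between replicate numbers, which the labels do not state to be pairs. Number 1 gave 0.60 for Dusp1, 1.41 for Dusp2, 1.02 for Dusp6 and 0.81 for Dusp16. The median of all genes between the same samples was 0.12 (quartiles -0.24 and 0.50). All 4 members were positive there, although the untreated sample was not well above background for Dusp2 and Dusp16. Number 2 gave 0.05, 0.09, -0.05 and -0.36 for the same genes, beside a median of -0.03. Number 3 gave 0.02 for Dusp1 and 0.16 for Dusp2, beside a median of 0.01. Dusp6 was not well above background in either sample of number 3, nor Dusp16 in the untreated one, so their differences there are uncertain.

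The other genes of the pathway were described from 11 lists of 113 genes, all on the array. Of these, 59 were well above background on 0 arrays and 31 were tested, of which 0 were called by limma with Benjamini-Hochberg adjustment. Among the 31, 22 differences were positive and 9 negative (71% positive, against 54.9% of all genes), and 2 had an unadjusted p under 0.05. Counts of signs depend on the processing. The median of all genes was 0.04 here, -0.12 with normexp and 0.40 with the percentile over all probes.

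Of the kinases that the phosphatases act on, 4 of 14 MAP kinases were tested (3 positive, 1 negative, median 0.17). Mapk6 differed by 0.18 (SE 0.52), Mapk7, which encodes ERK5, by 0.15 (SE 0.41), and Mapk14, which encodes p38 alpha, by 0.26 (SE 0.68). The negative one was Mapk3, at -0.56 (SE 0.46). One level up, 4 of 7 MAP kinase kinases were tested (3 positive, 1 negative). Map2k3, an activator of p38, was at 0.26 (SE 0.27), Map2k2, an activator of ERK, at -0.35 (SE 0.31) and Map2k4 at 0.34 (SE 0.35). Of 18 MAP kinase kinase kinases Map3k1 alone was tested (-0.17, SE 0.28).

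Other brakes on the pathway were mostly undetected, again like most probes of the array (48672 of 56605 on 0 arrays). None of the 3 tyrosine phosphatases that act on MAP kinases, Ptpn5, Ptpn7 and Ptprr, was well above background on any array. Of 7 Sprouty and Spred genes, which restrain Ras and Raf, Spred1 was tested (0.03, SE 0.37) and the other 6 were on 0 arrays well above background.

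Downstream, 6 of 11 kinases activated by MAP kinases were tested, 3 positive and 3 negative (median 0.10). Mapkapk2, the p38 target that controls cytokine mRNA stability, differed by -0.02 (SE 0.40) and Mapkapk3 by 0.22 (SE 0.49). Mknk2, a kinase of the translation factor eIF4E, was at -1.11, -0.31 and -1.32 with C5a and -1.66, -3.21 and -1.54 without. Its difference of 1.22 (SE 0.52, limma adjusted p = 0.9994) did not pass. All 7 of the 18 MAP kinase responsive transcription factors that were tested had a positive difference, where 54.9% of all genes tested did. Their median was 0.17, beside 0.04 over all genes. Junb was at 0.17 (SE 0.39) and Ier5 at 1.76 (SE 0.48, adjusted p = 0.9994 in limma). Jund at 0.03 (SE 0.25), Egr2 at 0.02 (SE 0.29) and Ier3 at 0.02 (SE 0.57) lay below the median of all genes. Fos, Fosl1, Egr3 and Etv5 were on 0 arrays well above background. Elk1, the member tested of 8 ternary complex and CREB factors, which bind SRE and CRE sites, differed by -0.05 (SE 0.37).

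Proteins that bind AU-rich elements, which destabilise or stabilise short-lived mRNAs such as that of Dusp1, had 6 of 8 members tested, 4 positive and 2 negative (median 0.46). Zfp36l1 differed by 1.02 (SE 0.98), Zfp36l2 by 0.66 (SE 0.44) and Elavl1 by 0.27 (SE 0.26). The value for Zfp36l1 rested on untreated 2, at -5.17 and not well above background, where the other 5 samples lay between -2.58 and -1.16. Zfp36, also positive, differed by 1.31 (SE 0.51, limma adjusted p = 0.9994), but was not well above background on C5a 1, untreated 1 and untreated 3. The negative ones were Khsrp at -1.38 (SE 1.17) and Hnrnpd at -0.46 (SE 0.73). Both were lowest on C5a 1, where neither was well above background.

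**Figure D5:**
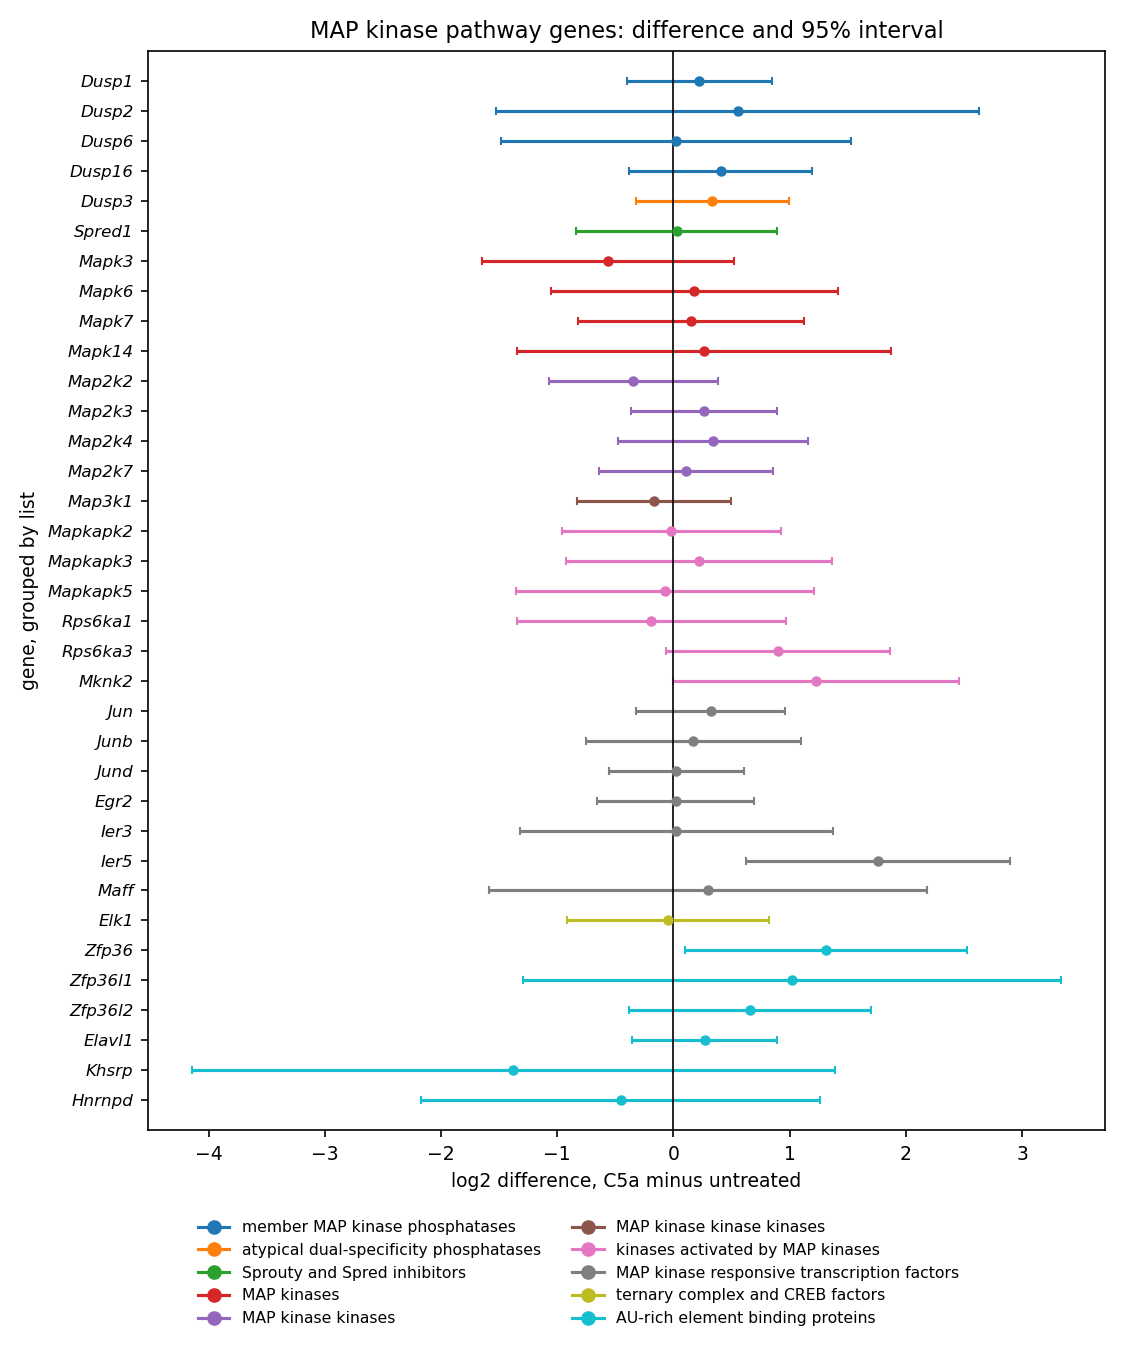
Log2 difference, C5a minus untreated, with 95% limma intervals (n = 3 per group) for the 4 tested members and the 31 tested genes of the other pathway lists, coloured by list. None passed after adjustment over all genes, and 2 of the 31 had an unadjusted p under 0.05.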

How the data were processed

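Per the file headers, the authors scanned 1-colour arrays of design 074809 (build mm9 cited) with Agilent Feature Extraction 10.10.1.1, protocol GE1_1100_Jul11. The deposited scanner files give each spot's intensity (processed signal and its error, median spot and local background) and flags of 0 or 1, with no scaling between arrays. The deposited series table holds log2 values. Log2 processed signal minus the 75th percentile of all probes on the array gave the same differences between samples for 99.0% of values (tolerance 0.01), so scale and direction are known. The value subtracted from each probe stays unknown. Medians of its columns were 0.01, -0.02 and 0.22 for C5a 1 to 3 and 0.17, -0.08 and 0.18 for untreated 1 to 3. All 6 arrays were on 1 slide.

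Control spots were left out (59305 of 62976 spots remained), as were the 112 to 138 outlier spots of each array where the probe had another spot. No spot was saturated. Log2 processed signal was scaled to each array's 75th percentile over the 2371 probes that were well above background throughout. Probes well above background (at least 0.5 of their spots) on at least 3 arrays were kept, and the brightest kept probe stood for a gene, which gave 4488 genes, 3276 with a symbol. RefSeq accessions were named through a GRCm38.p6 table, which matched 32994 of 56605 probes. Groups were compared as C5a minus untreated with limma 3.58.1 (R 4.3.3). The p-values were adjusted by Benjamini-Hochberg across the 4488 genes and called under 0.05. The simulated data on which the procedure was tried held no shared replicate effect, so they do not show how it performs on these arrays. The number of arrays limits the precision.

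Samples with the same replicate number deviated together from their group means, with correlations over genes of 0.21, 0.27 and 0.38 for numbers 1, 2 and 3, against -0.25 to 0.07 between different numbers. The deviations of a group sum to 0 for every gene, so the values between different numbers are not independent of those within a number. The labels give no reason for the shared deviations. The fit without the replicate block is reported, with the block as an alternative. The members and lists were chosen with earlier results of these data known. All members are named, and of each list the up to 3 tested genes with the highest mean level. Genes chosen after their values were seen are Dusp11, Styx, Cd68, Mapk3, Egr2, Ier3, Zfp36, Khsrp, Hnrnpd and the undetected ones named. Alternatives changed the scaling, background, filter, probe choice, outlier spots, source table, block, slide row and samples.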

Additional observations from a re-analysis of the deposited data

How the results depend on the processing

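No alternative gave any tested member an adjusted p under 0.05 in limma, and the lowest over all of them was 0.9267. The number of genes called was 0 in each alternative except without a filter on dim probes. There it was 47 of 46522 genes, 9 higher and 38 lower with C5a. Leaving out each sample in turn gave 0 to 0 calls, and differences of 0.06 to 0.30 for Dusp1, -0.25 to 1.38 for Dusp2, -0.47 to 0.74 for Dusp6 and 0.25 to 0.71 for Dusp16. The sign turned with normexp for Dusp1 (-0.022), Dusp6 (-0.20) and Dusp16 (-0.060), where the median of all genes also moved to -0.12. Relative to that median these values were 0.10, -0.08 and 0.06. The sign of Dusp2 turned when the slide row was added (-0.20), which leaves C5a 1 as the lone treated array of the row with all 3 untreated ones, and Dusp6 was then at 1.02. The other turns came from leaving out 1 sample, at -0.08 and -0.25 for Dusp2 and -0.47, -0.20 and -0.23 for Dusp6. With the percentile over all probes the median of all genes was 0.40. This choice moves the difference of every gene by the same amount. The members' distances from the median (0.19, 0.52, -0.01 and 0.37 for Dusp1, Dusp2, Dusp6 and Dusp16) therefore could not change. The replicate block cannot change a difference, since each number has 1 sample of each group. It changed no call (0 genes called), with SEs of 0.24, 0.35, 0.41 and 0.32 in the same order. Without the filter Dusp4 differed by 0.45 and Dusp5 by -0.41 (SE 0.77 for both), where the median of all genes was -0.41. With probes well above background on all 6 arrays only Dusp1 was tested (0.22), and the other members have no value there. The causes of the turns were not tested. Samples not well above background (1 of 6 for Dusp2, 2 of 6 for Dusp6 and Dusp16, 5 of 6 for Dusp4 and 6 of 6 for Dusp5) have no firm level.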
